A study of Mus musculus with 16 samples.

Results

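BMAL1 binding at 3 genes that encode repressors of the circadian clock, Bhlhe40, Bhlhe41 and Ciart, was examined in mouse liver. The members were the merged BMAL1 peak intervals that the authors annotated to these genes, at any distance, which came to 8 of 7043 intervals and 31 of the 9986 peaks behind them. Bhlhe41 had 5 of the 8 intervals, Ciart 2 and Bhlhe40 1. BMAL1 was mapped by chromatin immunoprecipitation and sequencing in livers of female and male C57bl6 mice, misaligned or control, at ZT12 and ZT0 (lights on for 12 h, off for 12 h). The 8 groups were thus female misaligned, female control, male misaligned and male control, each at both times. Every group had 1 BMAL1 library, made from a pool of 3 to 4 livers of mice 8 to 16 weeks old, and all mice were moved to a diet with 42% of its calories from fat when the control or misaligned regime began. The labels do not describe the misalignment schedule. A matching IgG library of each group was not used here. With 1 library a group there was no replicate error to set a difference against, and the values are those of single pools, in which more binding per cell and more cells with binding cannot be told apart.

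BMAL1 pairs with CLOCK and switches on genes through E-boxes, of which CACGTG is the canonical form. Among the genes it switches on are its own repressors. BHLHE40 and BHLHE41 are related basic helix-loop-helix proteins that bind E-boxes themselves and repress there, and CIART, also called CHRONO, binds BMAL1 and represses the CLOCK and BMAL1 pair. In liver these genes are rhythmic and stand beside the Period and Cryptochrome repressors in the negative limb of the clock.

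The Ciart promoter sequence is shown because it carries the motif at the peak summits, and that of Bhlhe41 for comparison, since a BMAL1 peak covered it in male misaligned ZT12 alone. Both come from RefSeq on GRCm38.p6 and run 5′ to 3′ on the minus strand, from 250 bases before the start site to 50 after it, with each CACGTG in capitals.
Ciart (chr3:95882179-95882478): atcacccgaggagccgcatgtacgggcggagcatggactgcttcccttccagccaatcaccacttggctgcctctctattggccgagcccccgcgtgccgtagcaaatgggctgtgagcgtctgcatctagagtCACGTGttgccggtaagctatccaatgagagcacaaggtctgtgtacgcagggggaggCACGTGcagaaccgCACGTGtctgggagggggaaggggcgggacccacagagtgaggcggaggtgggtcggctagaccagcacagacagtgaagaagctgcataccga
Bhlhe41 (chr6:145865371-145865670): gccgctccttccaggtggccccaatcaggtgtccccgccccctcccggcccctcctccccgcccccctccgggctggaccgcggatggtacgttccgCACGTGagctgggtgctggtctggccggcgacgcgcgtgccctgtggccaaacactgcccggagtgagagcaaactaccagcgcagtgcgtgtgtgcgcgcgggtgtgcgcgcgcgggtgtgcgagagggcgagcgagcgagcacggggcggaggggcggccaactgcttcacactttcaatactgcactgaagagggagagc
The Ciart window held 3 copies of CACGTG, which reads the same on both strands, starting at bases 135, 193 and 207 counted from the 5′ end. There were 52 bases between the first copy and the next, and 8 between that and the last. The Bhlhe41 window held 1 copy, starting at base 98. Of 32851 RefSeq promoter windows of the same length, 7.15% held at least 1 copy and 0.0883% (29 windows) held 3 or more.

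The libraries differed widely in how many peaks were called, and male misaligned ZT12 stood apart with 5542 peaks, against 141 to 1864 in the other 7 lists. Each peak has a fold enrichment over local background, a -log10 p and a -log10 q from the authors' peak caller. From the fold enrichment and -log10 p the whole number of fragments stacked at the summit, and the background there, could be solved for 100% of the peaks of every list. The lowest local background of a list was 4.25 to 6.16 fragments, and total read depth is unknown. To set libraries side by side, the fragments above local background were expressed in multiples of the lowest background in that list, a quantity called the scaled signal. Peaks on the Y chromosome numbered 1 to 8 in male lists, 1 in female control ZT0 and 0 in the other female lists. Of 8 hepatocyte marker genes, male misaligned ZT12 had peaks annotated to 4, female misaligned ZT0 to 1 and the other 6 libraries to 0, where 12.7%, 3.82% and 0.356% to 5.06% of all protein-coding genes had one. Male misaligned ZT12 also had peaks annotated to 2 of 6 endothelial markers, at which the other libraries had none. These peaks lay far from the start sites, at -43914 and -600053 bp. Within 10 kb of a start site, male misaligned ZT12 had peaks at 2 hepatocyte and 0 endothelial markers, where 8.9% of all protein-coding genes had one. The other libraries had none at either set within 10 kb. No library had a peak annotated to any of 6 stellate, 6 Kupffer and myeloid, 5 cholangiocyte and 5 lymphocyte markers. A peak near a marker is not a measure of its expression.

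Ciart and Bhlhe40 each carried a promoter interval called in all 8 libraries, whereas no interval at Bhlhe41 was called in more than 5. With a call required to cover 50% of the shortest peak of the interval, Bhlhe40 had 7 libraries, female control ZT12 being lost. Over the whole table, 0.483% of intervals were called in all 8 libraries and 78.5% in 1. Of the 8 member intervals, 3 were called in female misaligned ZT12, 3 in female control ZT12, 3 in female misaligned ZT0 and 2 in female control ZT0, where 3.08%, 1.96%, 18.8% and 3.17% of all intervals were called. In males 8 were called in misaligned ZT12, 3 in control ZT12, 4 in misaligned ZT0 and 2 in control ZT0, where 78.7%, 4.06%, 26.4% and 5.21% of all intervals were called. In each of the 4 treatment pairs, 0 member intervals were called in the control library and not in the misaligned one, against 0.965% (female ZT12), 1.95% (female ZT0), 0.895% (male ZT12) and 1.42% (male ZT0) of all intervals. In the other direction, called in the misaligned and not in the control library, there were 0 at female ZT12, 1 at female ZT0, 5 at male ZT12 and 2 at male ZT0, against 2.09%, 17.6%, 75.5% and 22.6% of all intervals. The share of all intervals was highest where the misaligned list was longest, in male misaligned ZT12. The 8 intervals lie at 3 genes and are not independent.

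**Figure D1:**
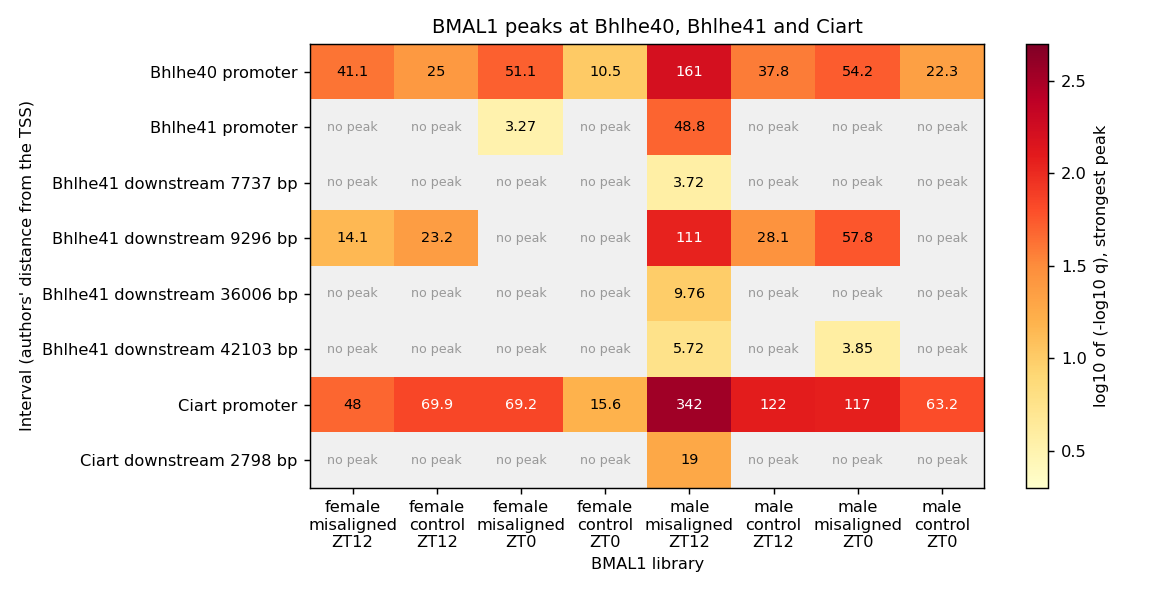
Peaks at the 8 member intervals (rows) in the 8 BMAL1 libraries (columns). Numbers give -log10 q of the strongest peak in a library and colour its log10, and grey cells had no peak. The Bhlhe40 and Ciart promoter rows are filled in all 8 libraries, and 3 rows are filled in male misaligned ZT12 alone.

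BMAL1 marked a compact site on the Ciart promoter in every library. The merged interval lay on chromosome 3 from 95881381 to 95883164, annotated as promoter, with its centre 198 bp upstream of the authors' start site. RefSeq places Ciart from 95878500 to 95882257 on the minus strand, inside the lncRNA gene C920021L13Rik (95871522 to 95889093) and near BC028528, which begins at 95883945. Summits stood on 122 fragments over a local background of 20.0 in female misaligned ZT12, 121 over 12.1 in female control ZT12, 117 over 11.4 in female misaligned ZT0 and 44 over 6.83 in female control ZT0. In males they stood on 305 fragments over 8.51 in misaligned ZT12, 141 over 7.05 in control ZT12, 146 over 8.57 in misaligned ZT0 and 95 over 7.50 in control ZT0. Male misaligned ZT12 was the highest of the 8 and female control ZT0 the lowest, and the female libraries at ZT12 differed by 1 fragment. The fold enrichment was 5.86, 9.29, 9.53 and 5.74 in the 4 female libraries in the same order, and 32.2, 17.6, 15.4 and 11.3 in the male ones. Within its own list the peak ranked 25 of 221, 13 of 141, 26 of 1330 and 23 of 225 by -log10 q in females, and 7 of 5542, 14 of 290, 15 of 1864 and 15 of 373 in males. It was in the top 10% of the list in 6 libraries. By rounding, that share held 9.95% of the peaks in female misaligned ZT12, 9.93% in female control ZT12 and 9.78% in female control ZT0. It held 9.98% in males misaligned at ZT0, 10.2% in control males at ZT0 and 10% in the other 3 libraries. The exceptions were female misaligned ZT12 and female control ZT0, at 11.3% and 10.2% from the top.

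All 8 Ciart summits fell between the outer copies of CACGTG. They spanned 47 bp, from 95882291 to 95882338, at -110 to -63 bp from the start site of the printed window (negative is upstream). That start, at 95882228, lies inside the gene bounds given above. Counted in the printed window, the summit was at base 155 in female misaligned ZT12, 141 in female control ZT12, 185 in female misaligned ZT0 and 166 in female control ZT0. In males it was at base 188 in misaligned ZT12, 177 in control ZT12, 152 in misaligned ZT0 and 162 in control ZT0. The nearest CACGTG was 1 to 26 bp away, closest in female control ZT12, and it was the first copy in 5 libraries and the second in 3. Between 1 and 3 copies lay within 50 bases of the summit in each library, and all 3 within 100 bases. Where the strongest summit of an interval, with 50 bases on each side, fell inside a promoter window, 20.5% (183 of 892 intervals) held CACGTG. Of the 1471 promoter windows that held a summit in any library, 28.9% held at least 1 copy and 0.748% (11 windows) held 3 or more. A motif match describes these letters and is not a measured binding site. The strongest summits of an interval spanned a median of 79.5 bp (range 2 to 1496) over the 34 intervals called throughout.

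**Figure D2:**
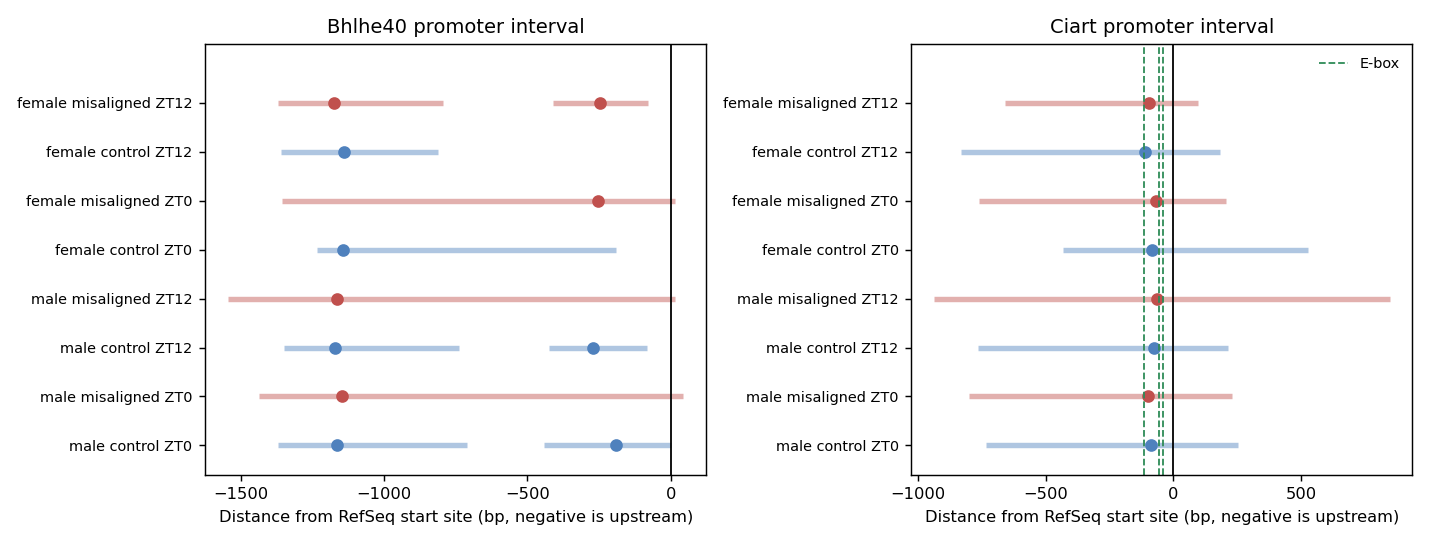
Peak extents (bars) and summits (points) in the Bhlhe40 and Ciart promoter intervals, by distance in bp from the RefSeq start site (for Ciart that of the printed window), with libraries down the page, misaligned in red and control in blue. The Bhlhe40 summits fall at 2 positions about 912.5 bp apart, and the 8 Ciart summits lie between the outer E-boxes (dashed lines).

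A Ciart interval at the 3′ end was called in male misaligned ZT12 alone. It ran from 95878995 to 95879557, annotated at the transcription termination site and 2798 bp downstream of the start. Its summit stood on 43 fragments over 5.79, with a fold enrichment of 6.48, and it ranked 702 of 5542.

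At Bhlhe40, BMAL1 peaks marked 2 positions upstream of the start, one about 1.1 kb away and one close to it. The merged interval lay on chromosome 6 from 108659085 to 108660673, annotated as promoter, and RefSeq places the gene from 108660629 to 108666925. The deposited signs of distance put it on the plus strand. It held 11 peaks in 8 libraries. The distal summits, in 7 libraries, lay at -1176 to -1141 bp from the RefSeq start, within 35 bp of each other, and the proximal ones, in 4 libraries, at -270 to -190 bp, within 80 bp. The medians of the 2 sets were 912.5 bp apart. Female misaligned ZT12, male control ZT12 and male control ZT0 had a separate peak at each position. Female control ZT12 had a peak at the distal position alone, from 108659269 to 108659818. The other 4 libraries had a wide peak that spanned the gap, with its summit at the proximal position in female misaligned ZT0 and at the distal position in female control ZT0 and both male misaligned libraries. Peaks here were 332 to 1561 bp wide, so 1 peak in a library does not mean 1 bound position.

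Where both positions had a peak of their own, the distal summit held more fragments. It held 95 against 50 in female misaligned ZT12, 72 against 52 in male control ZT12 and 56 against 49 in male control ZT0. In the last library the local background was also higher at the distal position (9.02 against 6.16 fragments), and the proximal peak had the larger -log10 q (22.3 against 20.7). The strongest Bhlhe40 peak of a library, by -log10 q, stood on 95 fragments over a background of 13.7 in female misaligned ZT12, 69 over 11.6 in female control ZT12, 82 over 7.19 in female misaligned ZT0 and 34 over 5.66 in female control ZT0. In males it stood on 172 over 7.34 in misaligned ZT12, 72 over 7.98 in control ZT12, 85 over 7.21 in misaligned ZT0 and 49 over 6.16 in control ZT0. As at Ciart, male misaligned ZT12 was the highest and female control ZT0 the lowest. Its ranks were 30 of 221, 34 of 141, 41 of 1330 and 33 of 225 in females, and 20 of 5542, 48 of 290, 38 of 1864 and 64 of 373 in males, in the same order. It was thus in the top 10% of 3 lists, which were female misaligned ZT0 and both male misaligned libraries. These are the 3 longest lists, and a place in the top 10% depends on list length. Rank 41 of 1330 passed, and rank 30 of 221 did not.

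Bhlhe41 differed from both in having its most often called interval past the 3′ end of the gene and not at the promoter. RefSeq places Bhlhe41 on chromosome 6 from 145858243 to 145865420 on the minus strand. The interval from 145855627 to 145856385, annotated as intergenic and 9296 bp downstream of the authors' start site, was called in 5 libraries. These were the 4 ZT12 libraries and male misaligned ZT0, so in controls it was called at ZT12 and not at ZT0 in either sex. The 5 summits lay within 30 bp of each other, 2349 to 2379 bp past the 3′ end of the gene, where the 78 intervals called in 5 libraries had a median summit span of 69.5 bp. The summit stood on 56 fragments over a background of 12.6 in female misaligned ZT12 and 62 over 9.92 in female control ZT12. In males it stood on 168 over 14.2 in misaligned ZT12, 65 over 9.08 in control ZT12 and 82 over 5.86 in misaligned ZT0. It ranked 88 of 221 and 37 of 141 in the female lists, and 36 of 5542, 64 of 290 and 32 of 1864 in the male lists, in the same order. It was in the top 10% of both male misaligned lists, which are the longest, and of no other. The same 8 calls were seen at 1 other interval of the table. Of the 62 intervals called in all 4 ZT12 libraries, 8 were called in neither control ZT0 library and 35 in both.

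Room for this call differed among the 3 libraries without it at the lower of the values computed below, and less at the higher. Over the 5 libraries with a peak, its scaled signal was 0.417 (female misaligned ZT12) to 0.795 (male misaligned ZT12) of the median of 26 intervals called in all 8 libraries without high local background. The same shares of that median would be a scaled signal of 9.48 to 18.1 in female misaligned ZT0, 3.21 to 6.12 in female control ZT0 and 4.84 to 9.23 in male control ZT0. The weakest peaks of these lists, without those of high background, had 2.30, 2.50 and 2.29. Of the peaks in female misaligned ZT0, 89.5% (1166 of 1303) were weaker than the lower of the values computed for it, against 27.5% (57 of 207) in female control ZT0 and 52.2% (180 of 345) in male control ZT0. Weaker than the higher value were 98.2% (1279), 88.4% (183) and 91.6% (316) of the peaks, in the same order. A call also depends on local background. At this interval it was 1.36 (male misaligned ZT0) to 3.33 (male misaligned ZT12) times the lowest of the list. In the 3 libraries without the call it is not known, and the comparison above leaves it out. What part depth had in the absent calls was not tested.

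The Bhlhe41 promoter interval, from 145865244 to 145866978, was called in female misaligned ZT0 and male misaligned ZT12. It stood on 23 fragments over 6.33 in female misaligned ZT0, at rank 1091 of 1330, and on 90 over 9.92 in male misaligned ZT12, at rank 176 of 5542. The summits lay at -940 and -1006 bp from the RefSeq start, outside the printed promoter window. They were 787 and 853 bp from its CACGTG, which the wide peak of male misaligned ZT12 covered and that of female misaligned ZT0 did not. The other 3 Bhlhe41 intervals were weak. Those 7737 and 36006 bp downstream were called in male misaligned ZT12 alone, with 25 and 31 fragments and ranks of 3793 and 1567. That 42103 bp downstream was called in both male misaligned libraries, with 25 fragments at ZT12 (rank 2714) and 20 at ZT0 (rank 1178 of 1864). Without male misaligned ZT12, 5 intervals would remain at the 3 genes.

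**Figure D3:**
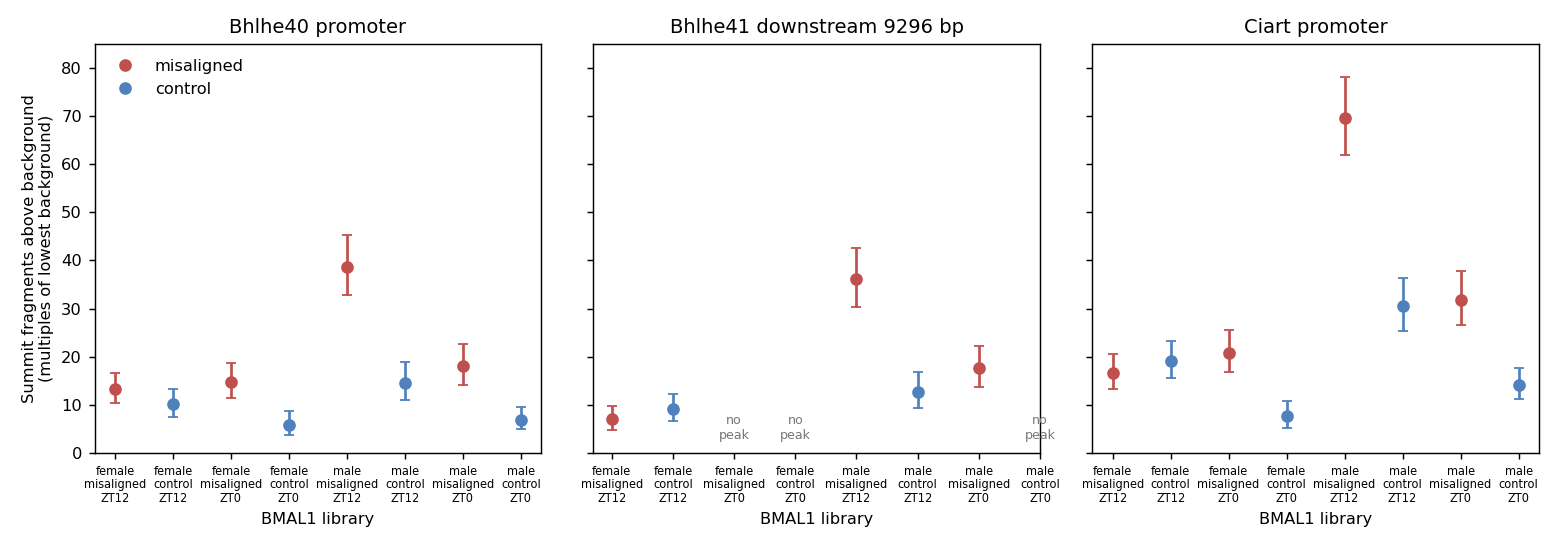
Scaled signal at the strongest peak (fragments above local background, in multiples of the lowest background in the list) in each library, at the Bhlhe40 promoter, the Bhlhe41 interval 9296 bp downstream and the Ciart promoter, misaligned in red and control in blue. Bars are exact Poisson 95% intervals of the fragment count and cover counting error only. Male misaligned ZT12 is the highest in all 3 panels, at 38.7, 36.2 and 69.7.

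Whether misalignment, sex or time went with BMAL1 signal at these sites was addressed by 4 matched pairs of libraries for each factor. At the Bhlhe40 promoter the scaled signal of the strongest peak was higher in the misaligned library of all 4 pairs. That peak had its summit at the proximal position in female misaligned ZT0 and male control ZT0, and at the distal one elsewhere. Pairs with 1 of these libraries, for any factor, thus set unlike positions against each other. In male control ZT0 the distal peak had a scaled signal of 7.62, against 6.95 at the proximal one. The strongest peak had 13.2 in female misaligned ZT12 against 10.1 in female control ZT12, and 14.8 in female misaligned ZT0 against 5.85 in female control ZT0. In males it was 38.7 in misaligned against 14.6 in control at ZT12, and 18.0 in misaligned against 6.95 in control at ZT0. The mean log2 difference was 1.13 ± 0.49 (SD over 4 pairs; exact permutation test flipping the signs of the pairs, two-sided, p = 0.13, Benjamini-Hochberg adjusted p = 0.266 over 102 tests, which were 34 intervals and 3 factors). This is the smallest p that 4 pairs allow. At the Ciart promoter it was 16.6 in female misaligned ZT12 against 19.2 in female control ZT12, and 20.9 in female misaligned ZT0 against 7.67 in female control ZT0. In males it was 69.7 in misaligned against 30.5 in control at ZT12, and 31.8 in misaligned against 14.2 in control at ZT0. The mean log2 difference was 0.90 ± 0.75 (higher in 3 of 4 pairs, exact p = 0.25, adjusted p = 0.345). Over the 34 intervals called in all 8 libraries the median of this mean was 1.00, and 27 were above 0. The scaled signal of most intervals called throughout was thus higher in misaligned libraries. Every interval annotated to another clock gene was among the 27, and so were intervals annotated to genes outside the clock list, such as Adh5 and Ndufb9. Those below 0 were annotated to Vmn1r-ps2, Gm10721, Gm10718, Gm10717, Gm17535 and Pisd-ps1, names taken after their values were seen. Relative to the median of the 26 intervals without high background in each library, the mean difference was 0.07 at Bhlhe40 (exact p = 0.75) and -0.16 at Ciart (exact p = 0.625), so the sign at Ciart turned. Bhlhe41 had a peak in both libraries of the ZT12 pairs, with a scaled signal of 7.07 in misaligned against 9.19 in control females and 36.2 in misaligned against 12.7 in control males.

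Both promoters had the lower signal in the female library of all 4 pairs of equal treatment and time, as 33 of the 34 intervals had on average. The mean female minus male log2 difference was -1.06 ± 0.68 at Ciart and -0.65 ± 0.61 at Bhlhe40 (SD over 4 pairs; exact p = 0.13 and adjusted p = 0.266 for each), beside a median of -0.69 over the 34 intervals. The value at Ciart was the lowest of the 34. Its 4 differences were -2.07 in misaligned mice at ZT12, -0.61 in misaligned mice at ZT0, -0.67 in controls at ZT12 and -0.89 in controls at ZT0, and the median over the 34 intervals was -1.45, -0.29, -0.81 and -0.58 in the same pairs. Relative to the median of the 26 intervals the mean was -0.27 at Ciart (exact p = 0.25) and 0.13 at Bhlhe40 (exact p = 0.5), so the sign at Bhlhe40 turned.

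At ZT12 both promoters had a higher signal than at ZT0 in 3 of 4 pairs of equal sex and treatment, with misaligned females the exception. The mean ZT12 minus ZT0 log2 difference was 0.81 ± 0.76 at Ciart and 0.70 ± 0.59 at Bhlhe40 (SD over 4 pairs; exact p = 0.25 and adjusted p = 0.345 for each), against a median of 0.56 over the 34 intervals, of which 30 were above 0. In misaligned females the difference was -0.33 at Ciart and -0.16 at Bhlhe40, where the median of the 34 intervals was -0.24. In the other 3 pairs it was 1.10 to 1.32 at Ciart and 0.79 to 1.11 at Bhlhe40. Relative to the median of the 26 intervals the mean was 0.31 at Ciart and 0.20 at Bhlhe40 (exact p = 0.13 for each, the smallest possible). On that scale the strongest peak of both promoters was higher at ZT12 in all 4 pairs. In misaligned females the share of that median was 0.98 at ZT12 against 0.92 at ZT0 at Ciart, and 0.78 against 0.65 at Bhlhe40. In male controls it was 0.641 against 0.599 at Bhlhe40. Both Bhlhe40 pairs set the distal position at ZT12 against the proximal one at ZT0. With the distal peak of male control ZT0 (scaled signal 7.62 against 6.95 at the proximal one), that pair would turn in sign. The 4 of 4 pairs and the smallest possible p at Bhlhe40 thus rest on the choice of peak. At the Bhlhe41 downstream interval the pair with both libraries was that of misaligned males, with a scaled signal of 36.2 in ZT12 against 17.6 in ZT0.

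**Figure D4:**
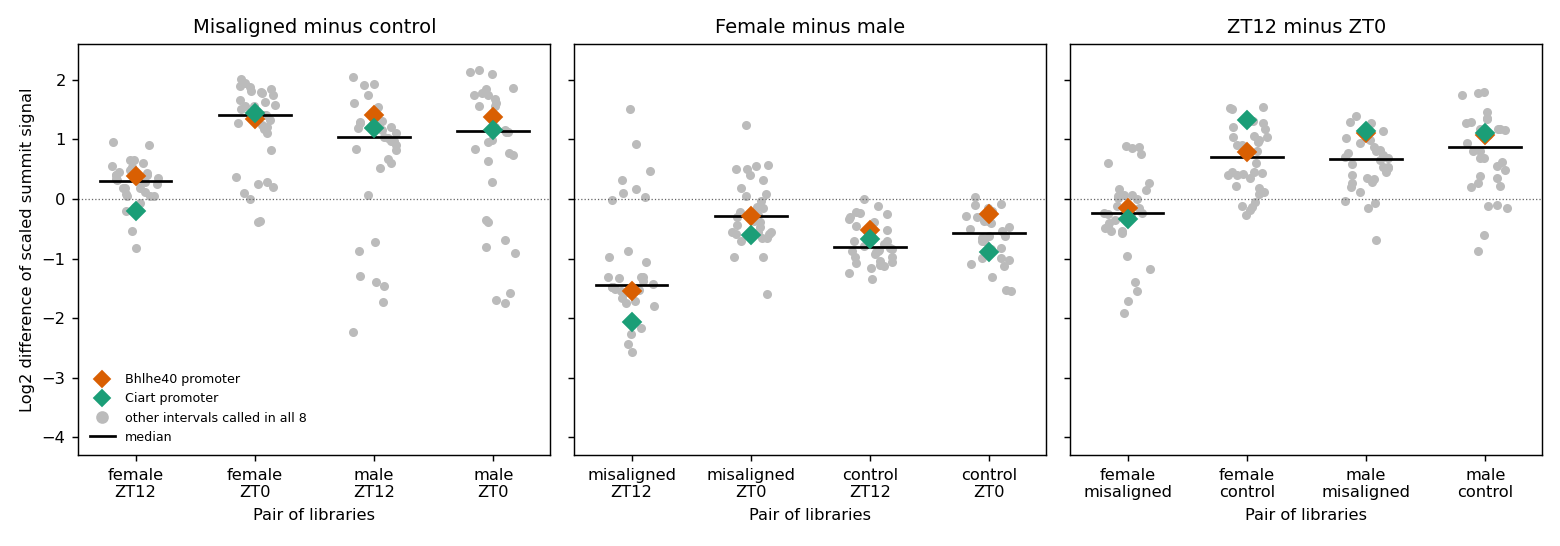
Log2 differences of scaled signal in the 4 matched pairs of each factor (y axis) at the Bhlhe40 (orange) and Ciart (green) promoters, beside the other intervals called in all 8 libraries (grey) and the median of all 34 (black line). At misaligned ZT12 in the female minus male panel, Ciart lies at -2.07 and Bhlhe40 at -1.55, beside a median of -1.45. Ciart lies below 0 at female ZT12 in the misaligned minus control panel, at -0.21.

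For the Bhlhe40 and Ciart promoters the intervals with the most alike pattern over libraries were mostly annotated to clock genes, as 12 of the 34 called in all 8 libraries were. Likeness was the mean absolute difference of log2 scaled signal after centring each interval on its own mean, so that a small value means a like pattern. For the Bhlhe40 promoter, over 8 libraries and 33 candidates, the most alike were annotated to Dbp (0.12, chromosome 7 from 45706886 to 45708389, -252 bp from the start site), Per3 (0.15, chromosome 4 from 151044224 to 151045185, -13207 bp) and Nr1d1 (0.18, chromosome 11 from 98782941 to 98783909, -12999 bp), with a median of 0.28 over the candidates. For Ciart they were the same Nr1d1 interval (0.15), one nearest Ndufb9, a subunit of respiratory complex I (0.18, chromosome 15 from 58999000 to 59000265, 65822 bp away), and one annotated to Cry2 (0.18, chromosome 2 from 92423499 to 92424270, 8508 bp), with a median of 0.31. For the Bhlhe41 downstream interval, over 5 libraries and 60 candidates, they were at Adh5, an alcohol dehydrogenase (0.06, chromosome 3 from 138442421 to 138443341), 4930432B10Rik (0.10) and Lincpint, a non-coding RNA gene (0.12), with a median of 0.29. The libraries share their depth and background, and candidates for Bhlhe41 needed a peak in its 5 libraries alone.

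Of the 19 other genes of the clock list, 10 were nearest to a peak in all 8 libraries, which were Per1, Per2, Per3, Cry1, Cry2, Nr1d1, Nr1d2, Dbp, Tef and Hlf. The highest -log10 q of these was 442 at Nr1d1, the REV-ERB alpha gene, 430 at Tef, 384 at Nr1d2 and 367 at Per2, all in male misaligned ZT12, where it was 342 at Ciart, 161 at Bhlhe40 and 111 at Bhlhe41. Ciart thus stood between Per1 (336) and Dbp (354), and Bhlhe40 and Bhlhe41 were below Cry2 (196), the lowest of the 10. Nfil3 was called in 3 libraries and Rora in 1. Within 10 kb of the start site 8 to 10 of the 19 had a peak in each library, where 0.457%, 0.242%, 2.94% and 0.411% of all 21900 protein-coding genes had one in female misaligned ZT12, control ZT12, misaligned ZT0 and control ZT0, and 8.9%, 0.484%, 3.52% and 0.804% in the male libraries in that order. At any distance 10 to 12 of the 19 had a peak in each library, against 0.594%, 0.356%, 3.82% and 0.598% of all protein-coding genes in females and 12.7%, 0.712%, 5.06% and 1.04% in males, in the same order. In the 25 RefSeq promoter windows of 16 of these genes CACGTG was found in 4, at Cry1, Per1 and Tef, and no window held 3 copies. The strongest peaks of several of these genes lay outside such windows, as at Per2 (-9470 bp) and Nr1d1 (-12999 bp), while that of Cry1 lay at -178 bp. The count is thus not one of E-boxes at their BMAL1 sites. The bHLH-Orange family to which Bhlhe40 and Bhlhe41 belong, with the HES and HEY repressors, was also counted. Of its 10 other genes Hes1, a target of Notch signalling, had a peak in 4 libraries (highest -log10 q 31.5, 668 bp from the start), and Helt in both male misaligned libraries at -32399 bp from the start. Thus 2 of 10 had a peak in male misaligned ZT12, 2 in male misaligned ZT0, 1 in female misaligned ZT0, 1 in male control ZT0 and 0 in the other 4 libraries, beside the shares of all protein-coding genes at any distance given above.

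Just outside the rule, an interval 963 bp past the 3′ end of Bhlhe40 (chromosome 6 from 108667888 to 108668867) was annotated to 0610040F04Rik at -7443 bp. It was called in male misaligned ZT12 with 73 fragments over 6.10 and in male misaligned ZT0 with 41 over 6.76. Counted to Bhlhe40 by position, it would be a second interval of that gene. It was called in the misaligned libraries of males at both times and in no other library. These have the longest lists, with 78.7% of all intervals called at ZT12 and 26.4% at ZT0. Near Ciart the next interval was 12919 bp from the gene and annotated to Mrps21, a mitochondrial ribosomal protein gene, with 41 and 27 fragments in male misaligned ZT12 and ZT0.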

How the data were processed

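The submitters' processing notes name BWA 0.7.17-r1188, the build GRCm38 and MACS2 2.2.7.1 for the BMAL1 peaks. The lowest -log10 q of a list was 1.30 to 1.42. The cutoff itself, duplicate handling and the use of the IgG libraries as control are not given in the sources used here. The authors deposited 1 peak list per BMAL1 library, with a score (by its values -log10 q times 10, cut to a whole number for nearly all peaks), fold enrichment as a ratio, -log10 p and -log10 q, and a table that merges the 8 lists into intervals with a call per library, nearest gene and distance. Its calls were checked against the lists.

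Summit fragments n and local background were solved from fold = (n + 1)/(background + 1) and the Poisson p, with a relative tolerance of 0.0001, which was tested on simulated data. High background means at least 5 times the lowest of a list. Where an interval held several peaks in a library, the one with the largest -log10 q was used. Pairs were compared by an exact sign-flip permutation test, adjusted over 34 intervals and 3 factors. Candidates for likeness were intervals called in every library where the member was. Names given follow the member genes, the 3 most alike intervals, and up to 4 genes of the clock and family lists, other listed clock genes and their values being added after these were seen, and annotated intervals within 20 kb of a member. E-box shares are over RefSeq promoter windows, in place of all intervals as planned, and 2 of the 3 genes had a window. Alternatives were other scales, thresholds, list lengths and overlaps, and leaving out a pair. The 8 IgG libraries were not used. Fragments are not independent molecules, so intervals cover counting error only. Members and lists were chosen with earlier results of these data known. Python 3.11.15, numpy 2.4.6, pandas 2.3.3, scipy 1.17.1 and matplotlib 3.10.9 were used.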

Additional observations from a re-analysis of the deposited data

How the results depend on the processing

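No paired analysis was possible because each group had 1 library, if paired means blocked by replicate number. The matched pairs compared are libraries of different groups that are equal in the other factors. Of 118 values recomputed under other settings 2 turned in sign and 15 counts or ratios moved. The other 101 include differences that kept their sign and side of the threshold but not their size. Relative to the median of the intervals called throughout, the misaligned minus control difference at Ciart was -0.16 and the female minus male difference at Bhlhe40 was 0.13; these are the 2. This scale divides out the shift common to those intervals by construction. As log2 fold enrichment the misaligned minus control difference was 0.34 at Ciart and 0.78 at Bhlhe40, female minus male -1.26 and -0.67, and ZT12 minus ZT0 0.43 and 0.16. Over the median background these were 0.76 and 0.99, -1.19 and -0.78, and 0.43 and 0.33, in the same order. The ratio of scaled signal in male misaligned ZT12, the highest library, to the lowest one was 6.62 at Bhlhe40 and 9.08 at Ciart (lowest in female control ZT0), and 5.11 at the Bhlhe41 downstream interval (lowest in female misaligned ZT12). For these same libraries it was 1.12 (Bhlhe40), 1.54 (Ciart) and 1.91 (Bhlhe41) relative to the intervals called throughout, and 3.95, 5.60 and 2.65 as fold enrichment. Without male misaligned ZT12 the highest over the lowest was 3.08, 4.14 and 2.49. Leaving out 1 pair in turn gave 0.71 to 1.27 (Ciart) and 1.03 to 1.37 (Bhlhe40) for misaligned minus control, -1.21 to -0.72 and -0.79 to -0.35 for female minus male, and 0.64 to 1.19 and 0.57 to 0.99 for ZT12 minus ZT0, with a smallest possible p of 0.25. With lists of equal length (141 peaks), 0 libraries kept a call at the Bhlhe41 promoter, at the intervals 7737, 36006 and 42103 bp downstream of it, and at the Ciart 3′ interval, and the Bhlhe41 interval at 9296 bp was called in 5. When a call had to cover 50% of the shortest peak of the interval, which at Bhlhe40 is a proximal one, the Bhlhe40 promoter was called in 7 libraries, without female control ZT12, and the Ciart promoter in 8. Within 1 kb of the start, Bhlhe41 had a peak in 2 libraries in place of 6. Leaving out male misaligned ZT12 and leaving out high background for the gene counts were chosen after seeing the data. E-box shares over all intervals need a genome sequence and were not computed.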

Other observations

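The 8 intervals called in all 4 ZT12 libraries and in neither control ZT0 library were annotated to Bhlhe41, E530001K10Rik, G6pc, Gm16061, Gm21786, Junb, Pim3 and Tspan4, names taken after their calls were seen. G6pc encodes the catalytic subunit of glucose-6-phosphatase, Junb a subunit of the AP-1 transcription factor and Pim3 a serine/threonine kinase.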
